A study of Mus musculus with 3 samples.

Results

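Molecular chaperones are described here: the heat shock proteins, the DnaJ co-chaperones and the chaperonins, with the factors that drive or assist them. They were taken by symbol as all protein-coding genes of GENCODE M21 named Hsp, Dnaj, Cct or Bag by a fixed pattern, plus Tcp1, Hsf1, Hsf2, Stip1 and Chordc1. The rule gave 92 genes of the 52636 in the files, and all 92 had a row. Of these, 82 passed the filter on low counts and entered the tests across 16548 genes, and 10 did not. The study set lymphomas that lack Cic, the gene of the transcriptional repressor capicua, against normal thymus of control littermates. Analysed here are RNA-seq counts of 3 normal thymi, called thymus 1, 2 and 3, all from C57BL/6 mice with Cic flox/flox alleles that had received tamoxifen. The lymphomas are not analysed here, so there is no contrast between groups, and the comparisons are between genes and between the 3 libraries.

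Chaperones bind unfolded protein and release it by cycles of ATP use. DnaJ proteins deliver substrates to HSP70 and speed its ATP hydrolysis, BAG and HSP110 proteins make HSP70 release its nucleotide, and HSP90 then receives selected clients through the adaptor STIP1. The ring-shaped chaperonins, TRiC in the cytosol and HSP60 with HSP10 in mitochondria, enclose substrates such as actin and tubulin or imported matrix proteins, and the transcription factor HSF1 induces many of these genes by binding inverted repeats of GAA and TTC units. In the thymus, developing T cells divide, assemble receptor chains in the endoplasmic reticulum with the help of BiP, and are selected.

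The libraries held 38265510 to 44932368 reads, and 25408442 to 30414788 of them fell on genes in the transcribed direction. Levels are given as CPM (counts per library after TMM scaling, set to a common total) when 1 gene is compared between thymi, and as TPM (read counts divided by the length of the union of a gene's exons and scaled to a common sum) when genes are compared with each other. Errors are SDs over the 3 libraries. A count of 3 reads corresponds to 0.0986 to 0.118 CPM before TMM scaling, which limits what was detectable in a library. All 8 thymocyte markers, which define the labelled tissue, were present, with summed levels of 10860, 10624 and 11041 CPM in thymus 1, 2 and 3. Erythroid markers stood apart, at 1024, 47.1 and 224 CPM. In bulk RNA, fewer cells of a type and less RNA per cell cannot be told apart.

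The heat shock element sequences of member promoters are shown first, because several members with a wide spread between thymi hold them. RefSeq promoters of GRCm38.p6, each from 250 bases before to 50 bases after an annotated start, matched 75 of the 92 members by symbol. They were searched for TTCNNGAA and GAANNTTC, the possible pairs of adjacent inverted units, each of which reads the same on both strands. They were also searched for longer runs, in which 3 or more units alternate with 2 bases between them and therefore hold overlapping pairs. A pair was found for 21 of 75 members (28%), against 17.0% of 27025 genes. A run of 3 units was found for 5 members (6.67%), against 0.662% of genes. These matches describe letters in a window and are not binding sites.

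The 5 members with at least 3 units in a run were Chordc1, Dnajb6, Hspd1, Hspe1 and Hsph1. Their runs follow, 5′ to 3′ on the gene's strand with the units in capitals, so that the length of each array can be compared. Chordc1, at chr9:18292260-18292288 (+), held 5 units, the longest run among the members. Dnajb6 lies at chr5:29735844-29735872 (+), Hsph1 at chr5:149636280-149636308 (-), and Hspd1 and Hspe1 at chr1:55088053-55088082 on opposite strands.
Chordc1: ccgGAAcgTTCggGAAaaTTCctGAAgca
Dnajb6: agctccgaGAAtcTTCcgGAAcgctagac
Hspd1: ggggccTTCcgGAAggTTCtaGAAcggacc
Hspe1: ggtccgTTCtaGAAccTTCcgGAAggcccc
Hsph1: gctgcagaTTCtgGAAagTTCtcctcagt

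Hspd1 and Hspe1 thus share 1 run of 4 units, read from either side. It starts 89 bases before the RefSeq start of Hspe1 and 144 bases before a RefSeq start of Hspd1, inside the annotated span of Hspd1. The genes are read in opposite directions and overlap at their first bases, since their GENCODE starts lie 111 bases apart, at 55088132 for Hspe1 (+) and 55088243 for Hspd1 (-).

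Hspa1a and Hspa1b, the inducible HSP70 genes, are printed next to show a window with a pair and no longer run. Their 250 bases before the start differ at 3 positions. The pair lies 104 bases upstream in both. The window of Hspa1a, at chr17:34972157-34972406 (-), reads as follows with the pair's units in capitals.
Hspa1a: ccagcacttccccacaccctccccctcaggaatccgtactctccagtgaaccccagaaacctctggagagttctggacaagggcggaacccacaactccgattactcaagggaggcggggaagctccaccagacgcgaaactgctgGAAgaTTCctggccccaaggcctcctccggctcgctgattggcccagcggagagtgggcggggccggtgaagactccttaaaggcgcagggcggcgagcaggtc

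The pairs of Dnaja1 (chr4:40722333-40722362, +), Hspb1 (chr5:135887791-135887820, +) and Bag3 (chr7:128523614-128523632, +) are shown as examples of windows with pairs but no longer run and with unequal spread between thymi. Dnaja1 and Bag3 held 1 pair each, 124 bases upstream of the start in Dnaja1 and 42 bases downstream in Bag3. Hspb1 held 2 separate pairs, 117 and 97 bases upstream, and the one farther from the start is printed.
Dnaja1: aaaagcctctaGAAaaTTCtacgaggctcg
Hspb1: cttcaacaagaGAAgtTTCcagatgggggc
Bag3: ggatgggaccaGAAgtTTC

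The chaperones together took up 9710, 8815 and 10246 TPM in thymus 1, 2 and 3, a mean of 9590 ± 723. The HSP90 and HSP70 families held 40.2% ± 2.37 of that sum. Of the 92 genes, 31 averaged 100 CPM or more, 33 lay between 10 and 100 CPM, 15 between 1 and 10 CPM, and 13 were below 1 CPM in every library. The 10 most abundant genes made up 52.7% of the summed TPM, so the pool was uneven.

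**Figure D1:**
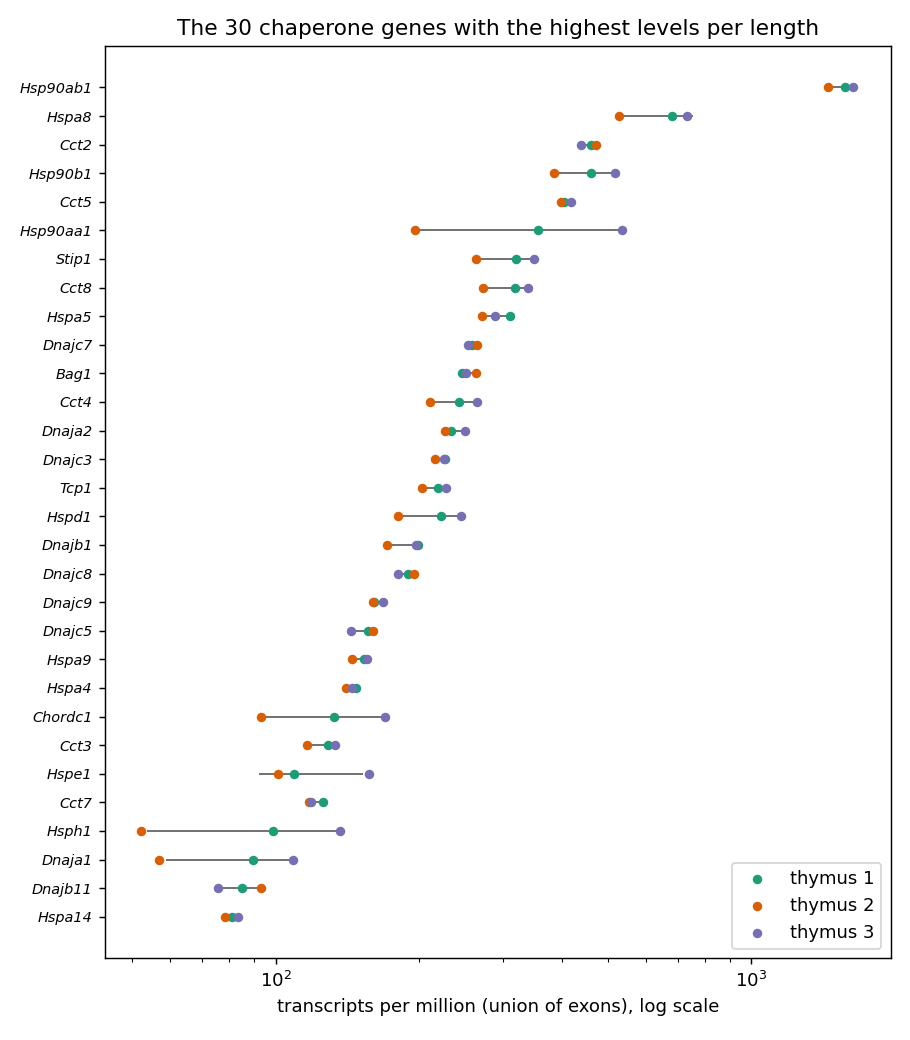
Levels per length of the 30 most abundant chaperone genes, in TPM on a log axis. Points are the 3 thymi and grey bars are the mean ± SD. Hsp90ab1 averaged 1555 TPM and Hspa8 647 TPM, and the points of Hsp90aa1 spread over 196 to 536 TPM.

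Of the transcription factors, Hsf1, the main driver of the heat shock response, had 67.0, 68.6 and 66.6 CPM in thymus 1, 2 and 3. Its level was nearly the same in all 3 thymi, with a highest to lowest ratio of 1.03. Hsf2, a related factor that can pair with HSF1, had 37.7, 31.4 and 42.1 CPM, with thymus 2 lowest and a ratio of 1.34. Hsf2 did not pass edgeR's quasi-likelihood test of variability (unadjusted p = 0.0824).

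The 3 HSP90 genes summed to 2371 ± 329 TPM, the highest sum of any family on the union of exons. Over the principal transcript they summed to 1958 TPM, below TRiC at 2134 TPM. Hsp90ab1, the constitutive cytosolic form (chr17:45567775-45573271, -), averaged 1555 ± 95.4 TPM and made up 16.2% of the chaperone sum. Hsp90b1, which encodes GRP94, the endoplasmic reticulum form that folds integrins and Toll-like receptors, averaged 454 ± 65.3 TPM. Hsp90aa1, the stress-inducible cytosolic form (chr12:110690605-110702728, -), averaged 363 ± 170 TPM. The order of Hsp90b1 and Hsp90aa1 on the union of exons is not separated beyond their spread.

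Between thymi, Hsp90aa1 had 411, 218 and 656 CPM, a ratio of 3.01 between thymus 3 and thymus 2. Thymus 3 was highest, thymus 2 lowest and thymus 1 between them. Hsp90ab1 had 1386, 1228 and 1529 CPM in the same order of libraries with a smaller ratio of 1.25. Hsp90b1 had 543, 439 and 648 CPM, a ratio of 1.48. In the quasi-likelihood test of variability by edgeR, which asks whether a gene varies between thymi more than genes of like abundance, Hsp90aa1 had an unadjusted p of 0.000249 and a Benjamini-Hochberg adjusted p of 0.172. Of the 50-base stretches of Hsp90aa1, 47.5% occur in transcripts of other genes, mainly the pseudogene Gm12346, which held 63, 31 and 85 reads. Since only uniquely mapped reads are counted, the level of Hsp90aa1 is uncertain.

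In the HSP70 and HSP110 list, 13 of 14 genes were tested. Hspa8, the constitutive HSC70, which also strips clathrin from vesicles, led with 647 ± 107 TPM. Hspa5, the endoplasmic reticulum chaperone BiP, followed with 291 ± 19.7 TPM. Hspa9, the mitochondrial HSP70 that pulls in imported proteins, averaged 151 ± 5.91 TPM, and the exchange factor gene Hspa4 averaged 144 ± 3.49 TPM. Hspa9 and Hspa4 lie within each other's spread. The stress-inducible Hspa1b and Hspa1a were low in uniquely mapped reads, at 11.7 ± 4.59 and 4.29 ± 1.43 TPM.

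Hsph1, which encodes the HSP110 exchange factor HSP105 (chr5:149614287-149636376, -), had 210 CPM in thymus 1, 107 in thymus 2 and 309 in thymus 3. Its ratio of 2.89 was the second highest among members of at least 1 CPM, after Hsp90aa1, and none of its 50-base stretches occurs in another gene's transcripts. Its unadjusted p was 0.000225 and its adjusted p 0.172 in edgeR's quasi-likelihood test. Hspa4l, another HSP110 gene, had 158, 113 and 192 CPM, a ratio of 1.70. Hspa8 had 857, 641 and 983 CPM, a ratio of 1.53, and its level is uncertain because 39.4% of its stretches recur in other transcripts, mainly the pseudogene Gm15459. These members were all lowest in thymus 2 and highest in thymus 3.

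Hspa1b had 10.02, 5.39 and 13.9 CPM, a ratio of 2.58, and Hspa1a had 3.75, 2.39 and 5.27 CPM, a ratio of 2.21. They lie near each other on chromosome 17 and are near-identical copies: 66.3% of the 50-base stretches of Hspa1a and 62.3% of those of Hspa1b occur elsewhere among transcripts. Since only uniquely mapped reads are counted, reads from these stretches may be left out. The levels of both genes are therefore uncertain and may be too low. Both ran in the same order of thymi as Hsph1.

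Other HSP70 genes had smaller ratios. Hspa5 had 386, 325 and 381 CPM, with thymus 1 and 3 close together. Hspa9 had 194, 176 and 209 CPM, Hspa4 had 240, 220 and 249 CPM, Hspa14, a partner of the ribosome, had 96.2, 89.8 and 105 CPM, and Hspa13, a microsomal HSP70, had 36.9, 32.4 and 38.8 CPM. Ratios of these 5 genes lay between 1.13 and 1.20. Hspa2, known from spermatogenesis, had 3.85, 3.07 and 3.33 CPM, Hspa12a had 1.97, 1.88 and 1.58 CPM, and Hspa12b had 1.38, 1.43 and 1.26 CPM. These 3 low genes did not have thymus 3 on top. Hspa1l, a testis gene, was below 1 CPM in every library, and 98.4% of its stranded reads lay on the opposite strand.

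The mitochondrial chaperonin genes ran in the same order of thymi. Hspd1, encoding the HSP60 ring, had 172, 135 and 202 CPM, a ratio of 1.497, and Hspe1, encoding its HSP10 lid, had 47.1, 42.0 and 72.1 CPM, a ratio of 1.71. Thymus 3 was highest and thymus 2 lowest for both. Their levels per length were 216 ± 32.7 TPM for Hspd1 and 122 ± 30.3 TPM for Hspe1 over the union of exons, and 157 and 156 TPM over the principal transcript, so that the gap between them depends on the length used. Sharing with other transcripts was 42.1% for Hspd1 and 22.8% for Hspe1, and their levels are uncertain to that degree. The unadjusted p was 0.0169 for Hspd1 and 0.0044 for Hspe1 in edgeR's quasi-likelihood test.

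The TRiC list had 9 genes, of which 7 were expressed at 1 CPM or more in every library. Cct2 led with 457 ± 15.9 TPM, ahead of Cct5 at 407 ± 10.8, Cct8 at 310 ± 33.8, Cct4 at 240 ± 26.8, Tcp1 at 217 ± 12.5, Cct3 at 126 ± 8.76 and Cct7 at 121 ± 4.54 TPM. The complex holds its 8 different subunits in equal number, while the transcript levels differed several fold on this scale. Over the principal transcript the range narrowed, to between 224 TPM for Cct7 and 405 TPM for Cct5. Cct3 with Cct7, and Cct4 with Tcp1, were neighbours not separated beyond their spread on the first scale.

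Between thymi, all 7 expressed TRiC genes were highest in thymus 3 and lowest in thymus 2 after TMM scaling, by unequal amounts, while with library totals the log2 difference of Cct2 between thymus 3 and thymus 2 turned from 0.04 to -0.04. Cct4 had 299, 251 and 347 CPM, a ratio of 1.38, and was the only TRiC gene past an unadjusted 0.05 in the quasi-likelihood test by edgeR, with an unadjusted p of 0.0488. Cct8 had 288, 238 and 326 CPM, Cct3 had 240, 209 and 264 CPM, and Tcp1 had 324, 289 and 357 CPM. Cct5 had 327, 310 and 361 CPM, Cct7 had 250.3, 225 and 251 CPM, and Cct2 had 345, 340 and 350.1 CPM, almost flat. The median log2 difference between thymus 3 and thymus 2 over the 8 tested TRiC genes was 0.26, beside -0.01 for all genes tested. Cct6a, the remaining subunit, is annotated as a processed transcript and is therefore no member. It was looked at after the other values were seen and had 237, 198 and 268 CPM. Cct6b, a testis subunit, and Cct8l1 were below 1 CPM in every library.

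**Figure D2:**
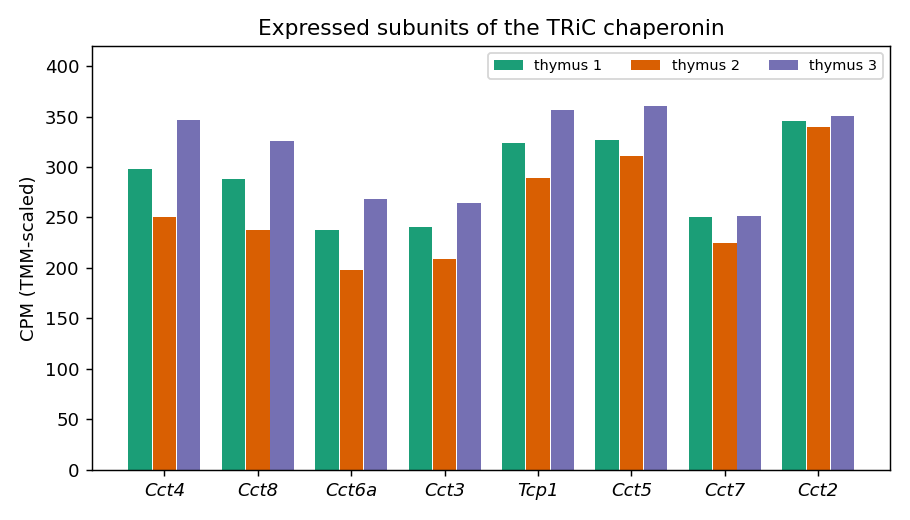
CPM of the 7 expressed TRiC members and of Cct6a, which is no member, with 1 bar for each thymus. Genes run from the largest to the smallest log2 difference between thymus 3 and thymus 2, from 0.47 for Cct4 to 0.04 for Cct2, and thymus 2 is lowest throughout with TMM scaling; Cct2 turns to -0.04 with library totals.

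Among the 4 DnaJ A genes, Dnaja2 was the most abundant at 237 ± 11.6 TPM, and Dnaja1, which like it serves cytosolic HSC70, averaged 85.1 ± 26.2 TPM. Dnaja1 had 226, 139 and 292 CPM in thymus 1, 2 and 3, a ratio of 2.11. It ran in the order of Hsp90aa1 and Hsph1. Dnaja2 had 204, 191 and 232 CPM and Dnaja4 had 11.5, 9.14 and 12.5 CPM. Dnaja3, the mitochondrial form, had 42.1, 38.4 and 41.2 CPM, and its ratio was 1.097. Of Dnaja4, 42.7% of the stretches are shared with Wdr61, which overlaps it.

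Of 13 DnaJ B genes, Dnajb1, the classic inducible HSP40, led with 189 ± 15.1 TPM, ahead of the endoplasmic reticulum forms Dnajb11 at 84.6 ± 8.73 TPM and Dnajb9 at 54.0 ± 4.31 TPM and of Dnajb4 at 35.7 ± 4.15 TPM. Over the principal transcript Dnajb1 still led, at 135 TPM, and Dnajb4 came next at 84.7 TPM, ahead of Dnajb11 at 72.7 TPM and Dnajb9 at 37.3 TPM. Dnajb1 had 187, 155 and 197 CPM, and its ratio of 1.26 was below those of Hsp90aa1 and Hsph1. Dnajb4, a cytosolic form, had 92.6, 77.6 and 108 CPM, a ratio of 1.39 with an unadjusted p of 0.0340 in edgeR's quasi-likelihood test. Dnajb11 ran the other way, with 80.5, 85.1 and 76.4 CPM, and Dnajb9 had 43.3, 35.6 and 43.3 CPM. Dnajb3, Dnajb7 and Dnajb8 were below 1 CPM in every library, and Dnajb8 had no read.

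The DnaJ C list had the lowest median ratio of the families with more than 10 tested genes. On the union of exons its most abundant genes were Dnajc7, whose product binds both HSP70 and HSP90, at 259 ± 5.55 TPM, Dnajc3, the endoplasmic reticulum co-chaperone P58IPK, at 223 ± 5.88 TPM, the spliceosomal Dnajc8 at 189 ± 7.50 TPM and the histone chaperone gene Dnajc9 at 163 ± 4.36 TPM. Dnajc7 had 368, 364 and 385 CPM, Dnajc8 had 142, 141 and 144 CPM, Dnajc9 had 112, 107 and 124 CPM, and Dnajc3 had 342, 314 and 362 CPM. The median ratio over the 26 tested genes was 1.13, and no gene of the list had an unadjusted p under 0.05 in edgeR's quasi-likelihood test. Dnajc30, a mitochondrial form, had 9.33, 10.98 and 6.74 CPM, a ratio of 1.63 with thymus 2 highest and thymus 3 lowest, and shares 24.3% of its stretches, nearly all with Bud23. Dnajc22, Dnajc5b and Dnajc5g were below 1 CPM in every library, and Dnajc5g had no read.

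Bag1, whose product frees nucleotide from HSP70, was the most abundant of the 6 BAG genes at 254 ± 9.46 TPM, ahead of Bag6, which guides tail-anchored proteins, at 75.5 ± 7.23 TPM. Bag1 had 97.3, 101 and 105 CPM and Bag6 had 133, 147 and 135 CPM. Bag4 had 31.8, 32.3 and 36.4 CPM and Bag5 had 36.8, 37.7 and 38.0 CPM. Bag2, an inhibitor of the ubiquitin ligase CHIP, had 10.4, 7.57 and 12.5 CPM, a ratio of 1.65 (unadjusted p = 0.0632 in edgeR's quasi-likelihood test). Bag3, an HSF1 target that links HSP70 to autophagy, had 9.20, 8.76 and 8.52 CPM. Bag3 is inducible like Hsp90aa1, and its ratio was 1.08.

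The small heat shock proteins were scarce. Hspb11, which despite its name is a subunit of intraflagellar transport, averaged 55.2 ± 5.29 TPM, and Hspb8, the partner of BAG3, averaged 45.3 ± 3.92 TPM. Hspb1, an inducible chaperone that holds unfolded protein, averaged 10.2 ± 2.46 TPM, and Hspb6 averaged 6.15 ± 1.38 TPM. Hspb1 had 2.30, 3.07 and 4.02 CPM, a ratio of 1.75, and here thymus 1 and not thymus 2 was lowest. Its level is uncertain, since 50.1% of its stretches occur in other transcripts, mainly the pseudogene Hsp25-ps1. Hspb6 had 4.01, 4.94 and 3.49 CPM, Hspb8 had 25.9, 27.1 and 25.1 CPM, and Hspb11 had 31.2, 30.9 and 39.5 CPM. Hspb2, Hspb3, Hspb7 and Hspb9 were below 1 CPM in every library.

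The co-chaperones of HSP90 and HSP70 in no other list ran in the order of Hsp90aa1. Chordc1, which binds HSP90, had 291, 197 and 398 CPM, a ratio of 2.02. Stip1, which hands clients from HSP70 to HSP90, had 197, 157 and 230 CPM, a ratio of 1.46, and averaged 311 ± 43.6 TPM. Hspbp1, an exchange factor of HSP70, had 27.0, 25.5 and 29.7 CPM, a ratio of 1.16. Thymus 3 was highest and thymus 2 lowest for all 3 genes.

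**Figure D3:**
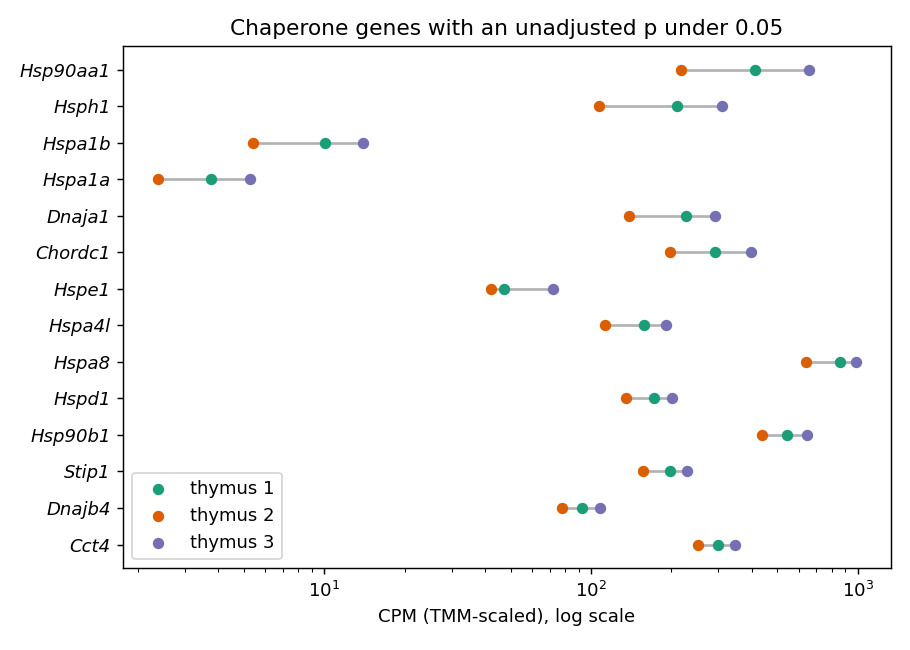
CPM of the 14 chaperone genes with an unadjusted p under 0.05, on a log axis, with 1 point for each thymus and a line from the lowest to the highest. Thymus 3 is the highest and thymus 2 the lowest in every row, and the widest rows are Hsp90aa1 at 218 to 656 CPM and Hsph1 at 107 to 309 CPM.

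Over all 82 tested members, the quasi-likelihood test by edgeR with Benjamini-Hochberg adjustment at 0.05 called 0 members as more variable than genes of like abundance, and 10 of 16548 genes (0.0604%). With 3 libraries this test can miss 2-fold changes, so 0 calls do not show that the members were stable. At an unadjusted p under 0.05 it gave 14 members (17.1%), against 4.42% of all genes. The negative binomial goodness of fit test called 7 members (8.54%), against 0.737% of all genes, and the DESeq2 rule for dispersion outliers called 5 (6.10%), against 0.489%. The 5 called by both were Chordc1, Dnaja1, Hsp90aa1, Hspa1b and Hsph1. In the quasi-likelihood test, leaving out thymus 1 gave 2 member calls among 25 over all genes, leaving out thymus 3 gave 6 among 137, and leaving out thymus 2 gave 0 among 23. The labels name no animal for each library, so a p-value here reflects the spread of these 3 libraries alone, part of which may be technical.

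Counting noise was a lower bar. With Benjamini-Hochberg adjustment at 0.05, edgeR's Poisson goodness of fit test called 52 of 82 members (63.4%), against 43.4% of all genes. Hsf1 was not among them, with an adjusted p of 0.716, and Hsf2 was. This test calls genes of many reads more easily. Among genes with a mean of at least 5 CPM it called 52 of 72 members, against 59.6% of genes. A highest to lowest ratio of at least 1.5 was reached by 14 members (17.1%), against 13.9% of all genes, a share near the background, and Dnajb3 and Dnajc22 among them were below 1 CPM. Among genes with a mean of at least 5 CPM the count was 10 of 72 members (13.9%), against 3.80% of genes. A ratio of at least 2 was reached by 6 members (7.32%), against 3.16%, and these were Chordc1, Dnaja1, Hsp90aa1, Hspa1a, Hspa1b and Hsph1. Without thymus 2 the count at 1.5 was 4 of 81 members (4.94%), against 6.18% of all genes, and without thymus 3 it was 6 of 83 (7.23%), against 5.90%. The median ratio was 1.21 for the members and 1.19 for all genes tested.

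**Figure D4:**
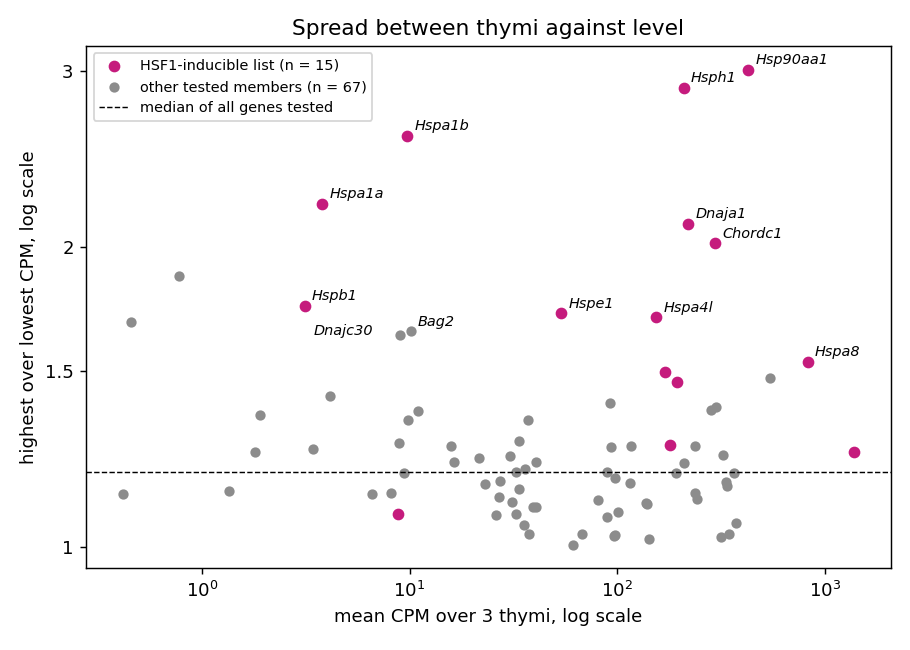
Highest over lowest CPM against mean CPM for the 82 tested members, on log axes, with the 15 genes of the HSF1-inducible list in colour and the other 67 in grey. The dashed line is the median of all genes tested, 1.19. Members with a ratio of at least 2 all belong to the coloured list, at mean levels from 3.80 CPM for Hspa1a to 428 CPM for Hsp90aa1. The list was chosen with earlier results of these data known.

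The order of the libraries was shared by many members. Thymus 3 was highest, thymus 1 next and thymus 2 lowest for 44 of 82 members (53.7%), against 25.7% of all genes. With library totals in place of TMM this order was held by 37 members, and the share of all genes was not counted on that scale. This order was picked from an earlier look at heat shock genes in these libraries and is given as a description. Thymus 3 was at least 1.5 times thymus 2 for 10 members (12.2%), against 3.92% of all genes. Conversely, 22 members (26.8%) were lowest in thymus 3, against 39.7% of all genes. The median log2 difference between thymus 3 and thymus 2 was 0.18 over the members and -0.01 over all genes tested.

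**Figure D5:**
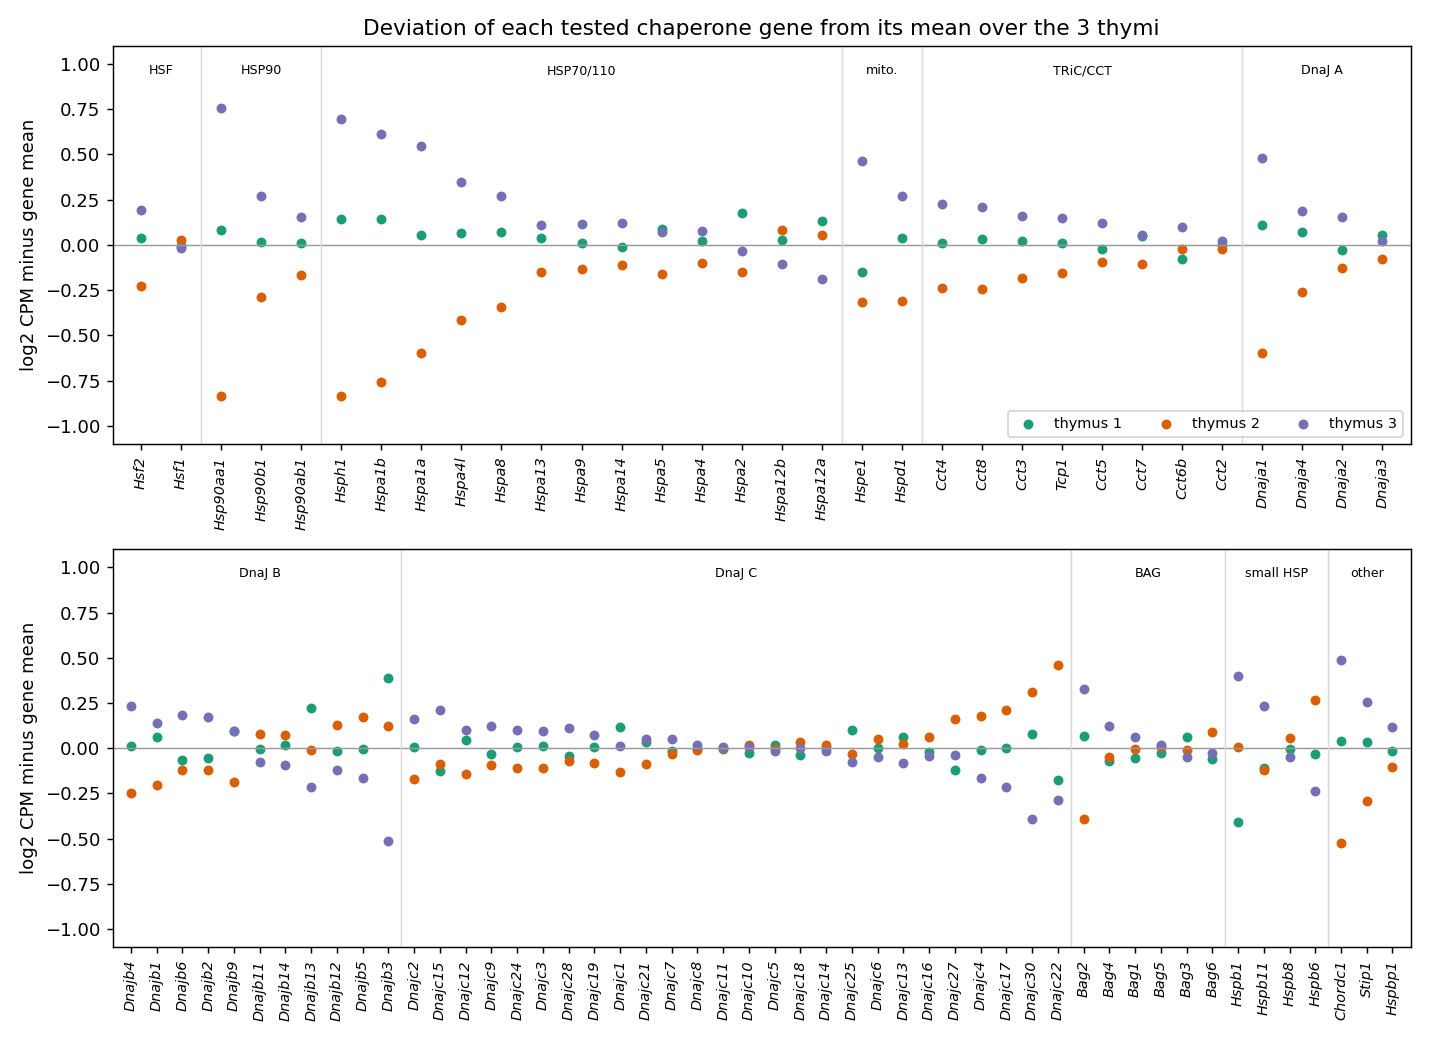
Log2 CPM of each of the 82 tested chaperone genes minus the gene's mean over the 3 thymi, grouped by family and ordered within each by the difference between thymus 3 and thymus 2. In the HSP90, mitochondrial chaperonin, TRiC and DnaJ A panels thymus 3 lies above thymus 2 for every gene with TMM scaling (with library totals Cct2 turns to -0.04), and the DnaJ C panel has a median difference of -0.00.

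By family, the median log2 difference between thymus 3 and thymus 2 was 0.68 for the mitochondrial chaperonin, 0.56 for HSP90, 0.55 for the other co-chaperones and 0.37 for DnaJ A. It was 0.25 for HSP70 with HSP110, 0.12 for the small heat shock proteins, 0.04 for BAG, -0.00 for DnaJ C and -0.16 for DnaJ B. With library totals in place of TMM every one of these differences is lower by a constant, which turned BAG to -0.04 and left the sign of the other families as it was. TPM are not TMM-scaled, and on that scale each difference is shifted by -0.14, so TPM are used here for levels only. The order 3, 1, 2 was held by 3 of 3 HSP90 genes, 2 of 2 mitochondrial chaperonin genes, 7 of 8 TRiC genes (5 with library totals) and 9 of 13 HSP70 and HSP110 genes. It was held by 10 of 26 DnaJ C genes (6 with library totals), 4 of 11 DnaJ B genes and 1 of 6 BAG genes. Among all genes tested 25.7% held it with TMM. The counts given here for families other than TRiC and DnaJ C were the same with library totals. The families were not compared by a test.

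A list of 15 members known as HSF1-inducible held 11 of the 14 members with an unadjusted p under 0.05. It held Hspa1a, Hspa1b, Hspa8, Hsp90aa1, Hsp90ab1, Hsph1, Dnaja1, Dnajb1, Hspb1, Hspd1, Hspe1, Hspa4l, Chordc1, Stip1 and Bag3. Hsp90ab1 and Hspa8 among them are called constitutive above. Of the list, 11 had an unadjusted p under 0.05 in the quasi-likelihood test by edgeR, 10 a ratio of at least 1.5 and 6 a ratio of at least 2. Of the other 67 tested members, the numbers were 3, 4 and 0, and the 3 were Cct4, Dnajb4 and Hsp90b1. The median ratio was 1.71 for the list and 1.17 for the other members, and the median log2 difference between thymus 3 and thymus 2 was 0.76 for the list and 0.13 for the other members. The list was chosen with heat shock genes of these libraries already seen, so neither its spread nor its direction is independent evidence. Exceptions within it were Bag3, highest in thymus 1, and Hspb1, lowest in thymus 1.

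Members were also grouped by compartment. The 8 endoplasmic reticulum members had a median ratio of 1.19 and a median log2 difference of 0.22 between thymus 3 and thymus 2, with 1 unadjusted p under 0.05 by edgeR (Hsp90b1). The 8 mitochondrial members had a median ratio of 1.23 and a median difference of 0.20, and 2 had an unadjusted p under 0.05 (Hspd1 and Hspe1). Within each compartment the members did not move as a block: Dnajb11 was lowest in thymus 3 while Hsp90b1 was highest there, and Dnajc30 was lowest in thymus 3 while Hspe1 was highest there.

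The heat shock elements printed above can be set beside these values. The tested members with a run of at least 3 units had a median ratio of 1.71 and a median log2 difference of 0.78 between thymus 3 and thymus 2, with a range from 0.30 for Dnajb6 to 1.53 for Hsph1. The 18 tested members with a pair, those with longer runs included, had a median ratio of 1.41 and a median difference of 0.42. The 49 with a RefSeq promoter and no pair had a median ratio of 1.17 and a median difference of 0.14. Of the HSF1-inducible list, 9 of 12 genes with a promoter held a pair (75%), against 19.05% of the 63 other members. The inducible genes without one in the window were Dnajb1, Hspa4l and Stip1, with ratios of 1.26, 1.70 and 1.46. Hsp90aa1, Hsp90ab1 and Hspa8 of this list matched no RefSeq promoter and were not searched. Their ratios of 3.01, 1.25 and 1.53 enter none of the medians by motif. Bag3 held a pair and had a ratio of 1.08. Of the 5 members with at least 3 units, 4 are on the HSF1-inducible list, which was chosen with heat shock genes of these libraries already seen. The groups by motif overlap with that list and are not independent evidence. Ratios of all genes with these motifs were not taken.

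Partners of the chaperones outside the naming pattern ran partly in the same order. Of 11 HSP90 co-chaperones and related factors, 6 ran in the order 3, 1, 2, against 25.7% of all genes. Of the same 11, 4 had an unadjusted p under 0.05 in edgeR's quasi-likelihood test, against 4.42% of all genes. Fkbp4, encoding the immunophilin FKBP52, had 233, 187 and 304 CPM, and Ptges3, encoding p23, had 64.7, 54.3 and 82.1 CPM. Ahsa1, the activator of HSP90's ATPase, had 115, 101 and 138 CPM, and Sugt1, an adaptor of HSP90, had 106, 88.7 and 124 CPM. All 4 were highest in thymus 3 and lowest in thymus 2. Trap1, the mitochondrial HSP90, and Fkbp5, an immunophilin, were among the most abundant of the list at 127 and 106 TPM, with ratios of 1.02 and 1.12.

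Prefoldin passes actin and tubulin to TRiC. Of 9 genes for prefoldin and TRiC cofactors, 8 ran in the order 3, 1, 2, against 25.7% of all genes. Their median log2 difference between thymus 3 and thymus 2 was 0.24. The subunit genes Pfdn4, with 43.0, 36.6 and 53.4 CPM, and Vbp1, with 120, 104 and 140 CPM, had an unadjusted p under 0.05 in edgeR's test. Pfdn5 and Pfdn1 averaged 453 and 188 TPM, with ratios of 1.15 and 1.22. The sole gene in another order was Pfdn2, with a ratio of 1.02.

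In the remaining outside lists no gene had an unadjusted p under 0.05 in edgeR's quasi-likelihood test, and the median ratio was 1.12 for 11 HSP70 cofactors, 1.19 for 7 other genes linked to HSF1 and 1.15 for 15 genes of the unfolded protein response. The most abundant cofactors of HSP70 were Stub1, the ubiquitin ligase CHIP, at 113 TPM, Grpel1 at 82.8 TPM and Gak at 81.2 TPM, with ratios of 1.15, 1.19 and 1.102. The ubiquitin gene Ubb averaged 552 TPM with a ratio of 1.07, and Hsbp1, whose product binds HSF1, averaged 172 TPM with a ratio of 1.06. Pdia3, Calr and Atf4 led the unfolded protein response list at 410, 335 and 253 TPM, with ratios of 1.19, 1.13 and 1.12. Of that list, 7 of 15 genes ran in the order 3, 1, 2, against 25.7% of all genes. The same order was held by 6 of 11 HSP70 cofactors but by only 1 of 7 other genes linked to HSF1. The median log2 difference between thymus 3 and thymus 2 was 0.16, 0.07 and -0.04 for these 3 lists in turn.

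Several other measures ran in the order of the inducible chaperones. The summed neutrophil markers were at 19.9, 16.5 and 43.9 CPM in thymus 1, 2 and 3, with 3 of 6 genes in the order 3, 1, 2 and none at 0 in all libraries. The thymocyte sum given above ran in this order too, with 2 of 8 genes in it, as did the sums for fibroblasts (140, 115 and 144 CPM, 1 of 4 genes) and muscle (33.9, 33.2 and 35.7 CPM, 1 of 7 genes). The sums for macrophages with dendritic cells, B cells, adipocytes, endothelium, thymic epithelium and erythroid cells ran in other orders. The share of reads assigned to genes ran in the reverse order, at 67.7%, 69.1% and 66.4%. Multimapping reads ran in the order of the inducible chaperones, at 14.4%, 14.0% and 15.5%. The part of these measures in the spread of the chaperones was not tested. Transcript GC content had a median of 47.3% in the HSF1-inducible list, 47.4% in the other members and 49.4% in all genes tested. With the GC trend removed the median difference of the inducible list between thymus 3 and thymus 2 was 0.62, against 0.76 before. Above 0 were then 15 of 15 genes of the list (14 before) and 42 of 67 other members (42 before). A ratio of at least 1.5 was then reached by 13 of 82 members (15.9%), against 13.1% of all genes. Ratios moved both ways, from 2.02 to 1.60 for Chordc1 and 2.11 to 1.86 for Dnaja1, but from 2.21 to 2.42 for Hspa1a. The part of GC content was not tested.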

How the data were processed

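RNA was extracted with the AllPrep kit for DNA and RNA and made into TruSeq Stranded mRNA libraries, per the labels. The submitters' processing notes list STAR 2.5.3a, DESeq2 with no version, and GRCm38. What was deposited are whole read counts for each gene in 3 columns. The first counts reads on either strand, and the other columns count each strand apart. No normalisation was applied by the authors, per the file values. Only uniquely mapped reads are counted in this layout. The last column, for reverse-stranded libraries, was used, and the 4 summary lines entered no library size. It held most of the stranded reads and is taken above as the transcribed direction. The middle column, taken as the opposite strand, held 906235 to 1061514 reads on genes. Of 52636 identifiers, 52489 matched GENCODE M21 without version and 147 did not. No source used here gives the annotation release behind the counts.

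The analysis used edgeR 4.0.16, DESeq2 1.42.0 and limma 3.58.1 under R 4.3.3, after a filter on low counts (minimum 10, total 15). TMM factors were 1.00, 1.03 and 0.971. The variability test fitted an intercept with edgeR's robust quasi-likelihood and referred each gene's quasi-dispersion over the trended prior to F (one-sided, prior degrees of freedom 5.24). P-values were adjusted over all genes tested. TPM used the union of exons, and the principal transcript length was added after the data were seen. Sharing is the percent of 50-base stretches found in other genes' transcripts. Checked on simulated counts, the test missed genes raised 2 fold in 1 library. The libraries were treated as replicates of 1 group.

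The members, lists, order of libraries and alternatives were chosen with earlier results of these data known. Named are all members of the HSF, HSP90, HSP70 with HSP110, chaperonin, TRiC and BAG lists. Of the small heat shock and DnaJ lists, the 4 with most TPM, those with an unadjusted p under 0.05, those with a ratio of at least 1.5 and at least 1 CPM, and those below 1 CPM are named. Of the outside lists, the 3 with most TPM and those with an unadjusted p under 0.05 are named. One gene among these is not reported here. Stip1, Chordc1 and Hspbp1, which form a list of their own, are named too. Dnajb6, Cct6a, Pfdn2 and partner genes that share sequence, with genes named for opposite-strand reads were chosen for other reasons, some after their values were seen. The limit of 3 counts covers counting error only.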

Additional observations from a re-analysis of the deposited data

Results flagged for a closer look

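Reads on the opposite strand, in a column that the levels above do not use, made up at least 20% of the stranded reads of 8 chaperone genes. Only genes with over 3 such reads in each library were taken. How many of all genes pass these limits was not counted, so 8 is not called many or few. The share was 98.4% for Hspa1l, whose antisense neighbour Gm10501 held 167, 156 and 130 reads in thymus 1, 2 and 3. It was 93.5% for Dnajb13, opposite Ucp2, and 93.8% for Dnajb7, opposite Xpnpep3. It was 36.2% for Dnajc19, opposite Fxr1, 31.6% for Dnajc1, opposite Mllt10, and 21.4% for Dnajc14, opposite Ormdl2. It was 88.0% for Hspb9 and 75.0% for Cct8l1. Hspb9, Cct8l1 and Dnajb7 each had fewer than 20 opposite-strand reads in a library. The stranded counts used above leave these reads out.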

How the results depend on the processing

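The count of members more variable than genes of like abundance was 0 as reported and under DESeq2 size factors, library totals, a mean of at least 5 CPM, the unstranded column, GC and length corrections, removal of mitochondrial genes and a prior that is not robust. It was 9 with no filter, where 285 genes were called in all, 5 by DESeq2's dispersion outliers and 7 by a negative binomial fit, and it ranged from 0 to 6 with each library left out. The cause was not tested. The count with a ratio of at least 1.5 was 14 as reported, 6 at a ratio of at least 2, and 4 to 13 with each library left out. It was 10 with a mean of at least 5 CPM (3.80% of genes) and 21 with no filter (50.1% of genes). The share of TPM in the HSP90 and HSP70 families was 37.3% with the principal transcript length, against 40.2% with the union of exons. The median log2 difference between thymus 3 and thymus 2 ranged from 0.60 to 0.77 for the HSF1-inducible list and from 0.18 to 0.29 for TRiC. These differences have no value without thymus 2 or thymus 3. With library totals the sign of the difference turned for the BAG list and for Bag1, Bag5, Cct2, Dnajc8 and Dnajc11. Above 0 were 51 of 82 members, against 56 with TMM. The median over all genes tested was -0.09 with library totals and -0.01 with TMM, and the share of all genes above 0 was not counted. No paired analysis was possible because there is 1 group. With 3 libraries, a gene of few reads is measured coarsely: Hspa1a rests on 70 to 130 reads per library.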
